A study of Mus musculus with 3 samples.

Results

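The 9 genes of the membrane-bound adenylyl cyclase family, Adcy1 to Adcy9, were examined in RNA-Seq of fluorescently sorted hippocampal cells from the mouse. They were taken by name from the 52636 genes of the count table, after each Ensembl identifier had been given its mouse symbol from GENCODE vM21, and all 9 were found. The study had a single group of 3 biological replicates, called CA1_Pyr_FACS, each made from 2 to 4 male mice on the C57BL/6J background aged 28 to 32 days after birth. All mice had the genotype Camk2a-Cre +/-, Ai14 +/-, in which Cre recombinase under the Camk2a promoter switches on the red fluorescent protein tdTomato. This Cre line labels some forebrain excitatory neurons and, by the study's account, CA1 pyramidal cells alone within the hippocampus, and whole hippocampi were dissociated with papain before live tdTomato-positive cells were sorted. Since no untreated, mutant or unsorted group was measured, the data describe levels and not a response.

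Adenylyl cyclases make cyclic AMP (cAMP) from ATP at the plasma membrane. All are switched on by the G protein alpha subunit Gs, and they differ in what else they respond to, so that each gene couples cAMP to a different second input. Adcy1, Adcy3 and Adcy8 are grouped as stimulated by calcium and calmodulin, Adcy2, Adcy4 and Adcy7 as stimulated by G protein beta-gamma subunits, and Adcy5 and Adcy6 as inhibited by calcium, while Adcy9 stands outside these groups. In hippocampal neurons cAMP acts through protein kinase A, Epac exchange factors and HCN channels, and is best known there for its part in long-term potentiation and memory.

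The 3 replicates held 48159841, 25686630 and 15833075 assigned counts, a 3.04-fold range. Levels are given as transcripts per 1000000 (TPM), the counts per kilobase of merged exon scaled to the same total over the 21883 nuclear protein-coding genes, which allows levels to be compared between genes. All 5 markers of CA1 pyramidal neurons were detected, led by Fibcd1 at 450.1 ± 56.5 TPM (SD, n = 3), but so were markers of other cells. C1ql2 of dentate granule neurons stood at 621 ± 31.3, Grik4 of the CA3 list at 85.1 ± 2.26 and Mbp of oligodendrocytes at 369 ± 85.5. All listed markers of these cell types were detected, as were those of astrocytes, led by Slc1a3 at 22.3 ± 10.4, and of microglia, led by C1qa at 13.7 ± 3.06. The interneuron list went the other way, with Gad1 at 52.1 ± 8.27 as the 1 detected gene of 6 and a list median of 1.04 TPM. Of the oligodendrocyte precursor markers 3 of 4 were detected, but apart from Olig1 at 38.0 ± 12.6 they were low, with a list median of 1.65 TPM. The levels below are therefore those of the sorted material as a whole, called tdTomato-positive cells here, and in such bulk RNA fewer cells of a type and less RNA per cell cannot be told apart.

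The cyclases share their catalytic core, and the stretch below was chosen because it is the 15-codon window in which the 9 proteins are most alike. Of its 15 residues 11 were identical in all members, as were 25 of its 45 bases. It shows both the conservation of the family and the base changes by which sequencing reads can be assigned to 1 gene. Each sequence is coding sequence of a GENCODE vM21 transcript, written 5′ to 3′ on the gene's own strand with GRCm38 coordinates and the exon of that transcript, and capitals mark the bases identical in all 9.
Adcy1, chr11:7161882-7161926, plus strand, exon 17 of 20: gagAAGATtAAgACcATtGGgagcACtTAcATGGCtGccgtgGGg
Adcy2, chr13:68640743-68640787, minus strand, exon 22 of 25: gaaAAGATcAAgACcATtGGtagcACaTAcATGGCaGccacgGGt
Adcy3, chr12:4210802-4210846, plus strand, exon 19 of 22: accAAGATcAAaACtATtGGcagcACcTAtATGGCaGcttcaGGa
Adcy4, chr14:55770058-55770102, minus strand, exon 23 of 26: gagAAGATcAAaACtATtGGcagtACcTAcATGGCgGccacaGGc
Adcy5, chr16:35299483-35299527, plus strand, exon 19 of 21: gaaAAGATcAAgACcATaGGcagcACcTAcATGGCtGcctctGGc
Adcy6, chr15:98593591-98593635, minus strand, exon 20 of 22: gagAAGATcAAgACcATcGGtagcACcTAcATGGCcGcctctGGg
Adcy7, chr8:88326126-88326170, plus strand, exon 25 of 28: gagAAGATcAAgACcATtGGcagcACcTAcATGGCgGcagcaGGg
Adcy8, chr15:64704169-64704213, minus strand, exon 16 of 18: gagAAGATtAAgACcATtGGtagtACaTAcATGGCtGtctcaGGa
Adcy9, chr16:4288603-4288647, minus strand, exon 11 of 11: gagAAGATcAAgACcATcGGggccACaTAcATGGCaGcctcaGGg

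Outside such windows the members diverged. Over the whole alignment of the translated coding sequences 134 of 1622 columns were identical in all 9, and identity over the 36 pairs ran from 34.3% for Adcy5 and Adcy9 to 70.0% for Adcy5 and Adcy6, with a median of 43.0%. The pairs of highest identity lay within the regulatory groups. Adcy5 and Adcy6, the calcium-inhibited pair, came first, followed by the beta-gamma-stimulated genes at 58.7% for Adcy2 and Adcy4, 57.6% for Adcy2 and Adcy7 and 55.2% for Adcy4 and Adcy7. The calcium- and calmodulin-stimulated genes did not show this, with 44.3% for Adcy1 and Adcy8, less than the 48.2% of Adcy1 and Adcy6. At the level of the transcript the longest run of bases shared by a pair was 33, between Adcy4 and Adcy8, and 0 of 36 pairs shared a run of 50 or more. The reads were 150 bp long, so that a read from one member extends past any run it shares with another.

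**Figure D1:**
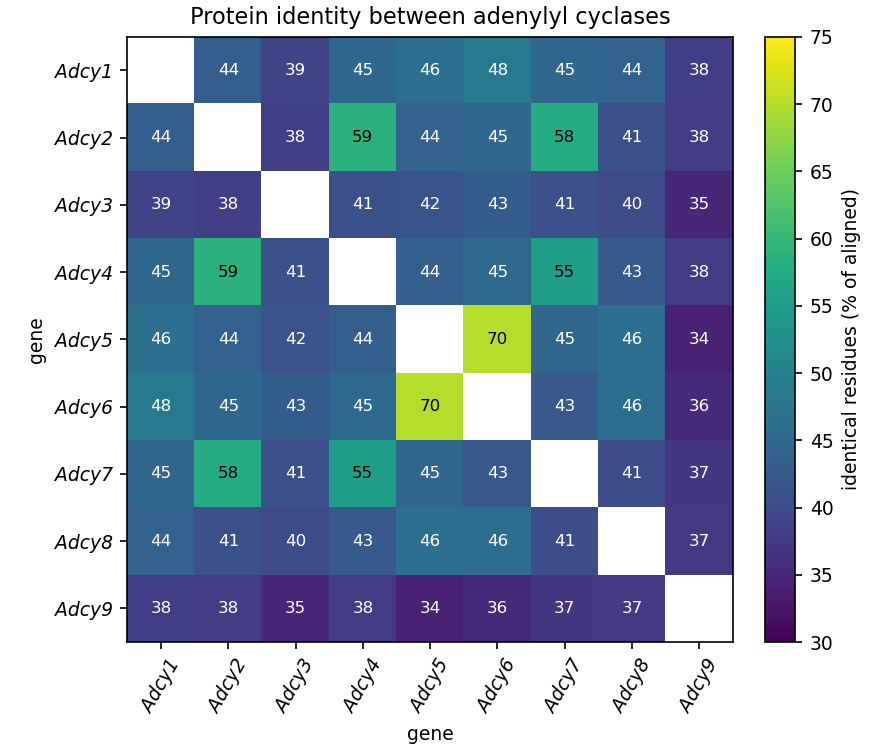
Percent identity of the translated coding sequences for each pair of adenylyl cyclases, counted over the residues aligned in both, with colour running from 30 to 75 percent. Adcy5 with Adcy6 and the trio Adcy2, Adcy4 and Adcy7 stand above the other pairs, and Adcy9 is the most distant member, at most 38.3% identical to any other.

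In the sorted cells 8 of the 9 genes were detected, that is, had a CPM (counts per 1000000 assigned) of at least 1 in each replicate, against 57% of all nuclear protein-coding genes. Adcy4 was the exception. The members spanned a wide range, from 582 TPM for Adcy1 to 1.16 TPM for Adcy4. The median member stood at 48.0 TPM, beside 37.6 TPM for the median detected protein-coding gene, and 6 members lay above that median. By definition as many of the 12471 detected protein-coding genes lie above it as below. The summed level of the family was 1074, 1077 and 1139.6 TPM in replicates 1, 2 and 3.

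**Figure D2:**
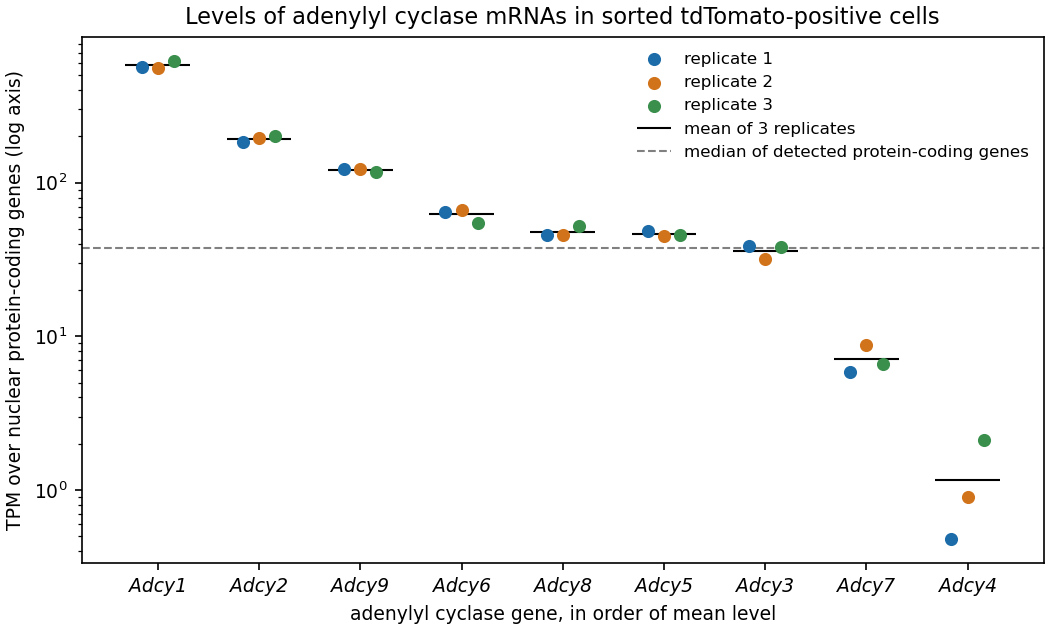
Level of each adenylyl cyclase gene in TPM over nuclear protein-coding genes, on a log axis, with 1 point for each of the 3 replicates and a bar at their mean. Adcy1 stands above all others in every replicate, Adcy8 and Adcy5 overlap, and Adcy4 lies lowest and is the most scattered.

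Adcy1 (ENSMUSG00000020431.5), the neuronal cyclase that links calcium entry through calmodulin to cAMP, was the most abundant member in every replicate. Its counts were 58856, 30902 and 20114, which gave 564, 559 and 623 TPM (mean 582 ± 35.6, SD, n = 3). It ranked 175 of 21883 protein-coding genes, at percentile 99.2. All 3 replicates were close to each other, with a coefficient of variation (CV) of 6.13% beside 0.575% from counting error alone, and the lowest of them was far above the highest value of any other member. The next gene, Adcy2, was 1.59 ± 0.07 lower on the log2(TPM + 1) scale, and Adcy1 was 3.08-, 2.85- and 3.11-fold higher in replicates 1, 2 and 3. This difference was many times its spread over replicates, but the exact two-sided sign-flip permutation test gave p = 0.25 with n = 3, the smallest value that 3 replicates can give. This floor of 0.25 holds for every difference between members below. None of them could therefore pass a test in this design, and each is set against its SD over replicates instead. Because the members were ordered on these same replicates, the direction of a difference between neighbours was fixed by the ordering.

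Adcy1 accounted for 52.5, 51.9 and 54.6% of the family's summed level, a mean of 53.0 ± 1.45%. It exceeded the other 8 genes together, 582 against 515 TPM on average, by 0.17 ± 0.08 on the log2 scale, with ratios of 1.11, 1.08 and 1.20. Its share of the family's counts was larger, at 73.2 ± 1.21%. The gap between the shares goes with gene length, since the merged exons of Adcy1 measure 12522 bp and those of the other members 3500 to 7007 bp. Only 26.8% of the Adcy1 length is coding sequence, the lowest value of the 9.

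**Figure D3:**
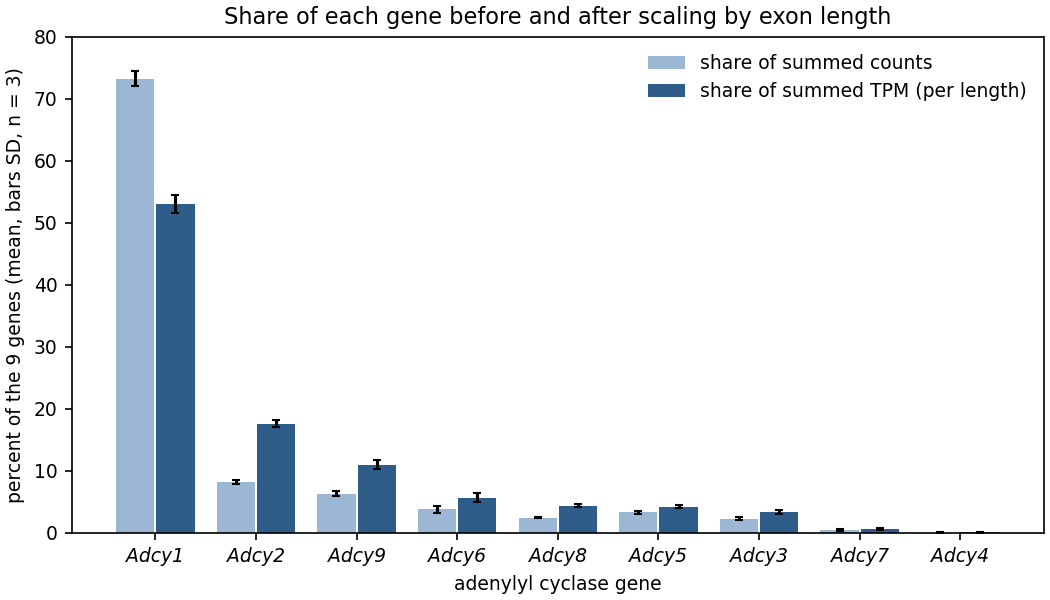
Share of each gene in the family, as percent of the summed counts (light bars) and of the summed TPM (dark bars), mean of 3 replicates with the SD. Adcy1 takes 73.2% of counts and 53.0% of TPM, and every other member takes a larger share of TPM than of counts.

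By root mean square difference of log2(TPM + 1) over the 3 replicates, the 5 protein-coding genes whose levels were most like that of Adcy1 were Brk1 (0.029), Gpm6b (0.045), Rasgrp1 (0.065), Prkar1a (0.077) and Skp1a (0.082). Prkar1a encodes a regulatory subunit of protein kinase A, the main cAMP receptor, and was at 617, 563 and 635 TPM. Over 3 samples of 1 kind the measure compares levels, not patterns across conditions.

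The other calcium- and calmodulin-stimulated genes were far lower. Adcy8 (ENSMUSG00000022376.7), which like Adcy1 is directly activated by calcium-bound calmodulin, had counts of 1932, 1010 and 680 and levels of 46.0, 45.4 and 52.4 TPM (48.0 ± 3.85). Replicate 3 was the highest. Adcy1 was 12.2-, 12.3- and 11.9-fold above Adcy8, a log2 difference of 3.57 ± 0.02. Adcy3 (ENSMUSG00000020654.15), the cyclase of olfactory transduction and of neuronal primary cilia, was at 38.7, 31.8 and 37.9 TPM (36.1 ± 3.74) from 2014, 878 and 610 counts. Replicate 2 was its lowest, as it was for all 5 astrocyte markers, with a summed level of 67.0, 36.0 and 75.7 TPM. The 6 interneuron markers summed to 68.0, 48.6 and 85.9 TPM. Each was lowest or tied for lowest in replicate 2, since 2 of them had no count in replicates 2 and 3. Replicate 2 was also the lowest for 4 of 5 dentate granule markers, which summed to 1161, 1039.7 and 1118 TPM. The CA3 and oligodendrocyte precursor sums were lowest there too. Other lists went the other way. The CA1 markers summed to 1503, 1625 and 1453 TPM and the oligodendrocyte markers to 947, 1036 and 955 TPM, both highest in replicate 2. The microglial, endothelial and mural sums were lowest in replicate 1. The low in replicate 2 was not particular to Adcy3, since Adcy1, Adcy5 and Adcy8 were lowest in replicate 2 as well. Whether RNA of astrocytes, interneurons or dentate granule neurons had a part in the Adcy3 value was not tested. Of the Adcy3 exon bases 22.1% are shared with Cenpo on the opposite strand, a gene with 216, 105 and 55 counts, and whether reads were counted by strand is not given in the sources used here. Together the group reached 648, 636 and 713 TPM, or 60.7 ± 1.77% of the family, and Adcy1 made up 87.4 ± 0.459% of it.

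Of the beta-gamma-stimulated genes, Adcy2 (ENSMUSG00000021536.7) was the second most abundant member of the family. Its counts of 6430, 3649 and 2173 gave 183, 196 and 200.1 TPM (193 ± 8.88), rank 1044, and 17.6 ± 0.585% of the family. Its exons share 4.49% of their bases with the antisense gene Gm35161, which had 131, 59 and 35 counts. Adcy2 was above the third member, Adcy9, in each replicate, by 0.67 ± 0.10 on the log2 scale. Adcy7 (ENSMUSG00000031659.13), best known from blood and immune cells, had 331, 260 and 115 counts and stood at 5.90, 8.74 and 6.62 TPM (7.09 ± 1.48). It was thus detected, but below every other detected member, and 2.21 ± 0.40 below Adcy3 on the log2 scale. Its CV of 20.9% was the highest among the 8 detected members, with 7.20% from counting error. Replicate 2 was the highest for Adcy7, as it was for C1qa but not for the summed microglial markers, which were 37.5, 47.0 and 53.8 TPM.

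Adcy4 (ENSMUSG00000022220.13), the last of the beta-gamma-stimulated genes, was close to the limit of detection. It had 14, 14 and 19 counts, with exact 95% Poisson intervals of 7.65 to 23.5 for replicates 1 and 2 and 11.4 to 29.7 for replicate 3, which cover counting error only. These counts gave 0.291, 0.545 and 1.20 CPM and 0.480, 0.906 and 2.10 TPM (1.16 ± 0.843). For a gene of the median length, the 3 counts that a count of 0 allows correspond to 0.108, 0.204 and 0.349 TPM, so that Adcy4 was above this floor in each replicate. Its CV was 72.4%, beside 25.5% from counting error, and without replicate 3 its mean was 0.693 TPM. Replicate 3 was the highest for Adcy4 and for all 5 endothelial markers, whose summed level was 11.8, 18.8 and 73.3 TPM. It was also the highest for all 5 mural cell markers, at 16.0, 20.7 and 76.3 TPM in sum. The same replicate was the highest for 4 of 5 microglial markers and for Adcy1, Adcy2 and Adcy8. Cldn5 of the endothelial list was at 5.85, 10.6 and 49.4 TPM and Rgs5 of the mural list at 7.81, 8.42 and 29.5 TPM. Of the defining markers of these 2 lists only Kcnj8 had no count in a replicate, and that in replicate 2. The part of vascular RNA in the Adcy4 value was not tested. The 3 genes together were at 189, 206 and 209 TPM, 18.4 ± 0.735% of the family, of which Adcy2 made up 95.9 ± 0.667%.

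**Figure D4:**
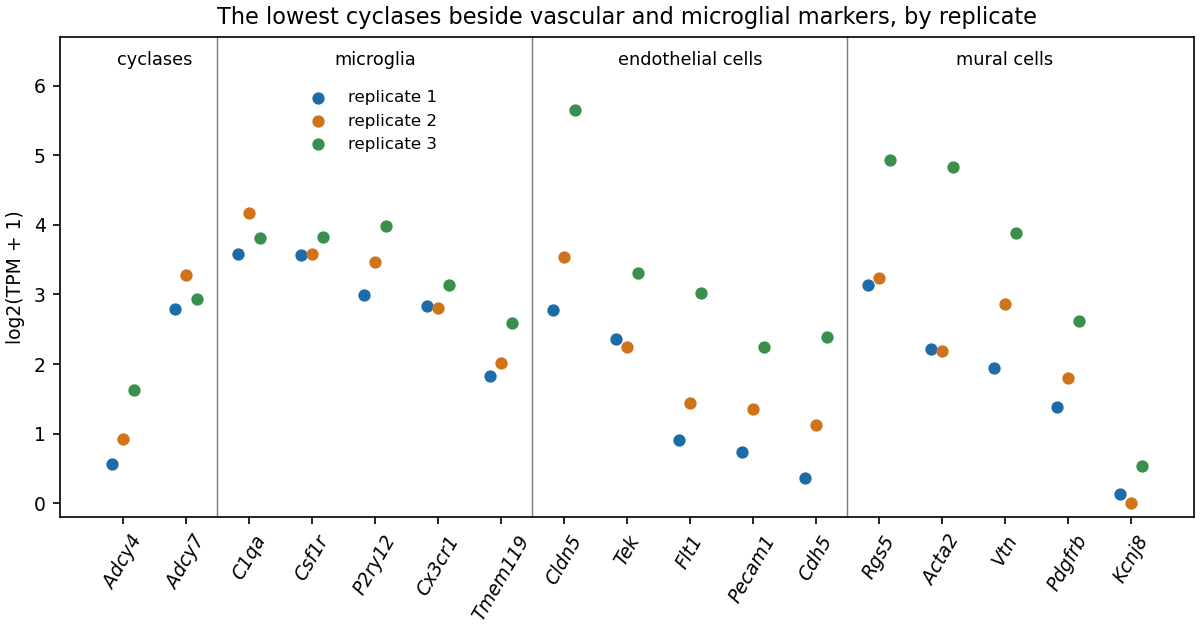
Levels of Adcy4 and Adcy7 as log2(TPM + 1) in each replicate, beside the markers of microglia, endothelial cells and mural cells. Adcy4, all endothelial and mural markers and 4 of 5 microglial markers are highest in replicate 3, while Adcy7 is highest in replicate 2.

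The calcium-inhibited pair was expressed at middle levels, and Adcy6 was the higher in each replicate. Adcy6 (ENSMUSG00000022994.8), which is expressed in many tissues, was at 64.5, 66.8 and 55.0 TPM (62.1 ± 6.23) from 3234, 1775 and 854 counts, with replicate 3 the lowest. The antisense gene Gm29331, which covers 9.99% of its exon bases, had 0 counts in every replicate. Adcy5 (ENSMUSG00000022840.8), the main cyclase of striatal neurons, was at 48.2, 45.3 and 45.7 TPM (46.4 ± 1.59) from 2818, 1402 and 826 counts. Its CV was 3.42%, close to the 2.76% of counting error. Adcy6 exceeded Adcy5 by 0.41 ± 0.14 on the log2 scale, with ratios of 1.34, 1.47 and 1.20. Together they held 113, 112 and 101 TPM, or 9.92 ± 0.933% of the family. That was above the sum of Adcy3 and Adcy8 in each replicate, 109 against 84.1 TPM on average, with a log2 difference of 0.37 ± 0.19.

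Adcy9 (ENSMUSG00000005580.11), the most divergent member in sequence and the least sensitive to the plant compound forskolin, was the third most abundant. Its counts were 5334, 2817 and 1569 and its levels 123, 123 and 117 TPM (121 ± 3.38), 11.0 ± 0.671% of the family. It had the lowest CV of the 9, at 2.80%, with 1.98% from counting error. Adcy9 alone exceeded the calcium-inhibited pair in sum, by 0.16 ± 0.05 on the log2 scale and in each replicate. It was also 0.96 ± 0.11 above Adcy6, the next gene in the order.

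In decreasing order of mean TPM the family thus ran Adcy1, Adcy2, Adcy9, Adcy6, Adcy8, Adcy5, Adcy3, Adcy7 and Adcy4. The ranges of neighbours overlapped for 1 pair, Adcy8 and Adcy5. Their log2 difference was 0.04 ± 0.13, with -0.07, 0.00 and 0.19 in replicates 1, 2 and 3 (exact two-sided sign-flip permutation test, p = 0.75, n = 3), so the 2 genes could not be ordered. The counted Adcy8 length, 5032 bp, is shorter than the 6990 bp of its longest coding transcript in GENCODE vM21. With transcript lengths Adcy8 fell below both Adcy5 and Adcy3, to 24.9 TPM. Its reads were counted over the shorter length only, so that value divides them by bases that were not counted. Adcy5 was above Adcy8 by counts too, and in TPM without replicate 3, where the difference was -0.03. Adcy6 exceeded Adcy8 by 0.36 ± 0.26, a difference of 0.48 and 0.55 in replicates 1 and 2 but of 0.07 in replicate 3. Adcy5 exceeded Adcy3 by 0.36 ± 0.12, but by only 0.03 ± 0.12 with transcript lengths, where their order was lost. Adcy7 exceeded Adcy4 by 1.96 ± 0.58, with ratios of 12.3, 9.65 and 3.15.

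By group, the calcium- and calmodulin-stimulated genes (666 ± 41.4 TPM in sum) exceeded the beta-gamma-stimulated genes (201 ± 10.4) by 1.72 ± 0.08 on the log2 scale, with ratios of 3.42, 3.09 and 3.41. They exceeded the calcium-inhibited genes (109 ± 6.74) by 2.61 ± 0.18. The beta-gamma-stimulated genes exceeded the calcium-inhibited genes by 0.89 ± 0.15. All 3 differences had the same direction in each replicate and were larger than their SD, and the exact sign-flip permutation test gave p = 0.25 for each (n = 3).

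Variation between replicates was small for most members. The median CV of the 8 detected members was 7.08%, beside 8.49% for detected protein-coding genes, and 5 of the 8 lay below the latter value. In each detected member the CV was larger than counting error alone would give.

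The 9 loci are spread over 7 chromosomes, with Adcy6 and Adcy8 on chromosome 15 and Adcy5 and Adcy9 on chromosome 16. The most abundant gene, Adcy1, lies at chr11:7063489-7178506 on the plus strand and spans 115 kb in 22 exon blocks. Adcy2 at chr13:68620043-68999541 on the minus strand is the longest, at 379 kb, and Adcy4 at chr14:55769058-55784042, also on the minus strand, the shortest. Span and level did not go together in a simple way, since Adcy6 (chr15:98589994-98607633, minus strand) spans 17.6 kb and Adcy8 (chr15:64699042-64922296, minus strand) 223 kb. Adcy3 (chr12:4133103-4213525) and Adcy7 (chr8:88272403-88329962) lie on the plus strand, as does Adcy5 (chr16:35154877-35305737), and Adcy9 (chr16:4287529-4420498) lies on the minus strand. No exon of a member overlaps an exon of another gene on the same strand.

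The genes around the cyclases were also measured, from lists of cAMP pathway genes by role. Of 87 listed genes 78 were detected, beside the 57% given above, and 52 stood above the median detected gene. That median splits all detected protein-coding genes evenly by definition. Among the stimulatory alpha subunits, Gnal was at 84.7, 76.7 and 95.9 TPM (85.8 ± 9.64) and Gnas at 16.3, 13.5 and 14.0 (14.6 ± 1.48). Both were below Adcy1. The Gnas value carries a limit, since 22.0% of its exon bases are shared with genes on the opposite strand, and its merged exons of 11186 bp are far longer than its longest coding transcript of 3947 bp. All 5 inhibitory alpha subunits were detected, led by Gnao1 (223 ± 6.14 TPM), Gnai1 (190.4 ± 25.5) and Gnaz (147 ± 0.942). All 8 beta and gamma subunits were detected too, led by Gnb1 (392 ± 20.6), Gnb2 (366 ± 15.7) and Gng3 (251 ± 9.83).

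Of the receptors that act on the cyclases, 10 of 14 coupled to Gs were detected and 11 of 13 coupled to Gi or Go. The Gs list had a median of 11.1 TPM and was led by Adcyap1r1, the receptor for the peptide PACAP, at 204, 165 and 206 TPM (192 ± 23.1), followed by Vipr1 (57.4 ± 2.25) and Crhr1 (53.1 ± 3.12). Adora2b had no count in replicate 3 and Vipr2 none in replicate 2. The Gi and Go list had a median of 54.7 TPM and was led by the GABA-B receptor subunits Gabbr1 (469 ± 19.0) and Gabbr2 (262 ± 6.85) and by the glutamate receptor Grm2 (207 ± 2.28). Calmodulin is the calcium sensor of Adcy1 and Adcy8, and its genes Calm2, at 4299 ± 89.1 TPM, and Calm3, at 2825 ± 175 TPM, were well above every cyclase.

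Downstream of cAMP all 6 protein kinase A subunits were detected and stood above the median detected gene. Prkar1a (605 ± 37.5 TPM), Prkar1b (390.1 ± 18.0) and the catalytic subunit Prkaca (285 ± 11.0) were the highest. The Epac genes differed, with Rapgef4 at 116 ± 13.2 and Rapgef3 at 6.86 ± 0.747 TPM. Of the HCN channels, Hcn2 was at 126 ± 8.19 TPM and Hcn3 at 15.5 ± 0.793. Of 15 phosphodiesterases that break down cAMP 12 were detected, led by the calmodulin-dependent Pde1b (387 ± 20.5), then Pde4a (134 ± 5.67) and Pde1a (104 ± 5.78). Their summed level was 873, 838 and 829 TPM, below the 1074, 1077 and 1139.6 TPM of the 9 cyclases. This sum and the order of the list carry a limit at Pde2a, counted at 13.6 ± 2.36 TPM. Of its exon bases 64.3% are shared with another gene on the same strand. How reads in shared exons were counted is not given in the sources used here, so its level may be too low. All 7 A-kinase anchoring proteins were detected, led by Akap11 (179.9 ± 21.0), Akap1 (72.3 ± 4.33) and Akap6 (71.6 ± 2.12). All 7 proteins that bind or regulate cyclases or their G proteins were detected as well, led by the cyclase-associated proteins Cap1 (369.7 ± 13.0) and Cap2 (323 ± 11.5), with Rgs14 (119 ± 6.25) next. The soluble cyclase Adcy10, which is activated by bicarbonate and not by G proteins, was at 3.36, 3.32 and 3.73 TPM (3.47 ± 0.225), between Adcy7 and Adcy4.

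**Figure D5:**
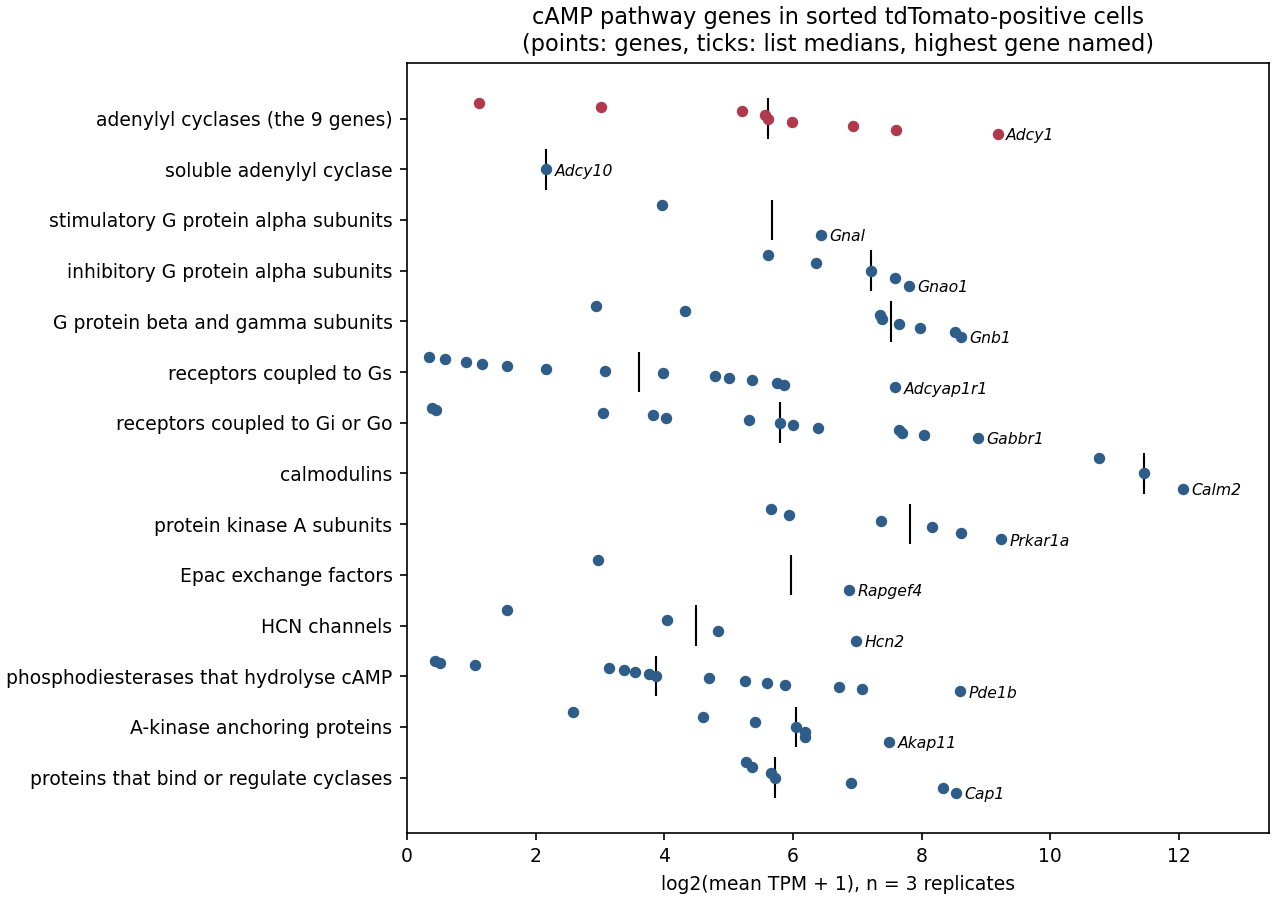
Mean level over 3 replicates as log2(TPM + 1) for the 9 adenylyl cyclases (red) and for the genes of each cAMP pathway list (blue), with a black tick at the list median and the highest gene named. Calm2 stands above all cyclases, Adcy1 lies close to the highest protein kinase A subunit, and the receptors and phosphodiesterases spread over a wide range.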

How the data were processed

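Poly(A) RNA of FACS-sorted cells was made into TruSeq libraries and sequenced as 150 bp paired-end reads. The authors deposited unnormalized read counts for every gene, and beside them the merged exon length in bp. The submitters' processing notes name STAR, featureCounts and mm10/GRCm38. The study's methods state GENCODE vM15 as the annotation for counting its TRAP libraries, and none for these. Versions, the strand setting, and whether reads or fragments were counted are not given in the sources used here. Symbols were assigned from GENCODE vM21 to 52489 of 52636 identifiers, and 0 sample columns were left out. TPM was computed over nuclear protein-coding genes because a noncoding gene of 57 bp, Gm23935, took 32.7, 48.3 and 40.5% of TPM over all genes. Log2 values used a pseudocount of 1, and a gene counted as detected if its CPM reached 1 in all replicates. With 1 group no test between conditions could be made. Differences between genes were taken within each replicate and tested by exact sign-flip permutation. With 3 replicates this p-value is 0.25 whenever all 3 differences share a sign, so it does not measure their spread. The level script was tested on simulated data.

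The members and lists were chosen with earlier results of these data known. All 9 members were named, with the 3 highest genes of each pathway list and those with a 0 count, the highest of each marker list, the 5 genes most like Adcy1, and genes whose exons overlap a member, except for some that are not reported here. Pde2a was named besides, for the exon bases it shares with another gene. Proteins were translated from GENCODE vM21 and aligned with mafft 7.526. Python 3.11.15, numpy 2.4.6, pandas 2.3.3, scipy 1.17.1, matplotlib 3.10.9, Biopython 1.88 and, for TMM factors only, edgeR 4.0.16 in R 4.3.3 were used. Alternatives were TPM over all genes, the longest coding transcript as length, size factors, TMM, a filter on low counts, other pseudocount and CPM thresholds, and leaving out each replicate.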

Additional observations from a re-analysis of the deposited data

How the results depend on the processing

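Over 149 alternatives to 22 results, 133 kept the result within its spread or on its side of the threshold, 14 moved a level and 2 turned a direction. For differences no p-value could pass the threshold with 3 replicates. A difference that kept its sign was therefore always counted as kept, however much its size changed. Both turns concerned Adcy8 minus Adcy5, which was 0.04 on the log2 scale. It became -0.41 with the length of the longest coding transcript and -0.03 without replicate 3. For Adcy8 that transcript is longer than the exons over which its reads were counted, so its level there is divided by uncounted bases. With 1 replicate left out this difference ran from -0.03 to 0.10. The transcript length also moved Adcy6 minus Adcy8 from 0.36 to 0.81 and Adcy5 minus Adcy3 from 0.36 to 0.03 (exact sign-flip permutation p = 1.00), and put Adcy8 below Adcy3. The order of the 9 genes was the same under TPM over all genes, size factors, TMM, the filter and without replicates 1 or 2. TPM over all genes moved 8 levels and the transcript length 6, to 182 and 428 TPM for Adcy1, by construction of the scale. The Adcy1 share of the family lay between 52.2 and 53.6% under its 5 alternatives, and 8 members were detected under every alternative. The Adcy7 to Adcy4 difference of 1.96 depended on the pseudocount, at 2.71 with a pseudocount of 0.1, since Adcy4 rests on 14 to 19 counts, and was 1.25 with TPM over all genes. No paired analysis was possible because there was only 1 group to pair, and differences between genes were already taken within replicates. With so few counts Adcy4 is the member whose level depth limits most, and it fell to 0.693 TPM without replicate 3.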
